A study of Mus musculus with 4 samples.

Results

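The genes examined here were 10 imprinted genes that are known to act on prenatal and early postnatal growth: H19, Igf2, Dlk1, Meg3, Peg3, Mest, Cdkn1c, Grb10, Plagl1 and Ndn. They were picked by name from the 23946 genes measured, and all 10 were found in each library. In 4 RNA-seq libraries, the calvarial frontal bone and the parietal bone behind it were compared between Twist1+/- and wild-type animals at postnatal day 21, all on the C57BL/6J background. Each combination of bone and genotype had 1 library, and the submitters gave 12 mice per strain without saying how animals were pooled. Twist1+/- mice carry a single working copy of Twist1, a basic helix-loop-helix transcription factor of the skull mesenchyme, in every tissue, and no other allele or treatment was given for any group. Levels are in FPKM, fragments scaled to transcript length and to the number of mapped fragments.

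An imprinted gene is transcribed mainly from the copy inherited from a single parent, and many imprinted genes sit in clusters that share a control region. Igf2, Dlk1, Peg3, Mest, Plagl1 and Ndn are expressed from the paternal copy, while H19, Meg3, Cdkn1c and Grb10 are expressed mainly from the maternal copy outside the brain. In most mouse organs the growth-related members are abundant before birth and are turned down together in the weeks after it.

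Twist1 was checked first. In frontal bone it was at 59.0 FPKM in wild type and 30.4 FPKM in Twist1+/-, and in parietal bone at 52.5 FPKM in wild type and 50.7 FPKM under the Twist1+/- label. The frontal level in mutants was 0.515-fold that of wild type, whereas the parietal ratio was 0.966, so the Twist1 level went against the label of the parietal mutant library, which is called labelled Twist1+/- parietal bone below. All 12 osteoblast and osteocyte markers examined reached 1 FPKM in at least 1 library, but Col1a1, the main bone collagen gene, was listed at 5595 FPKM in parietal bone of wild-type mice but at 0 in the other 3 libraries, and an exact 0 in these files can be a failed estimate. No member was listed at 0. With 1 library per group there was no replicate check and no test between groups, so every difference below describes these libraries, and FPKM values do not show how deeply a library was sequenced.

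Wild-type parietal bone held the highest level of 9 of the 10 imprinted genes, and the exception was Meg3. Among the 14760 genes that reached 1 FPKM in at least 1 library, 35.5% were highest in this library. For H19, Igf2, Dlk1, Mest and Cdkn1c the wild-type parietal level was more than 3-fold above each of the other 3 libraries, a pattern shared by 1.21% of those genes. Summed over the members, the level was 589 FPKM in frontal bone of wild-type mice, 545 FPKM in Twist1+/- frontal, 967 FPKM in labelled Twist1+/- parietal and 3923 FPKM in wild-type parietal bone. H19 and Igf2 made up most of this sum, and without them the other 8 summed to 181, 165, 215 and 517 FPKM, which was 2.85-fold higher in wild-type parietal than in wild-type frontal bone. A higher level in bulk bone can come from more cells of an expressing type or from more RNA per cell, and these cannot be told apart here.

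**Figure D1:**
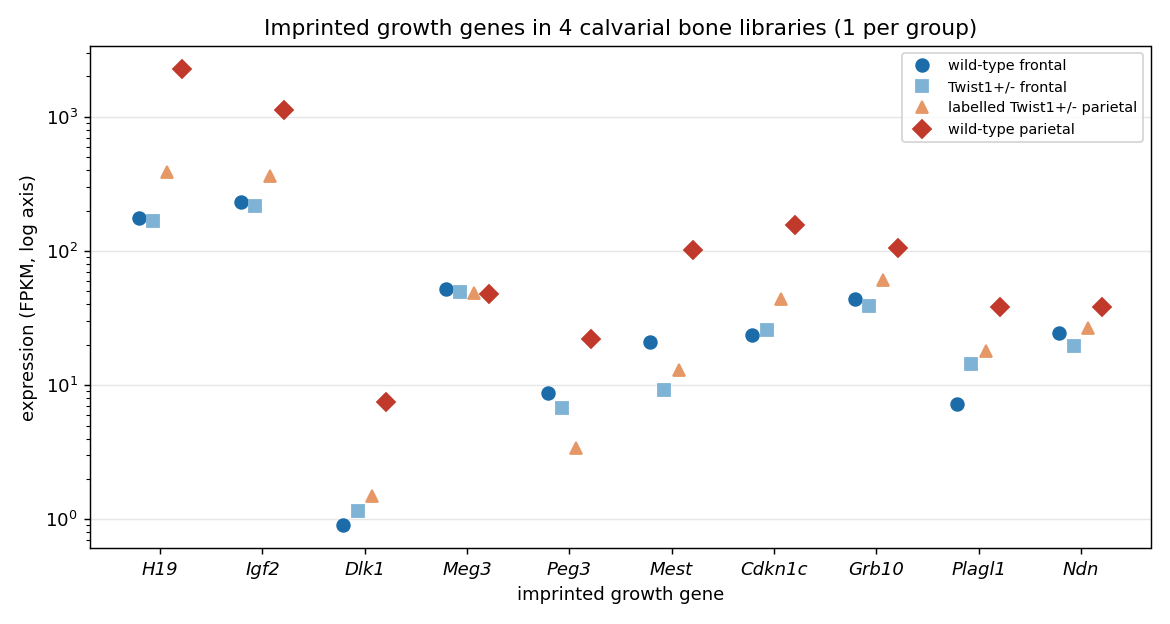
Level of each of the 10 imprinted growth genes (FPKM, log axis) in the 4 libraries, 1 point per library and 1 library per group. The wild-type parietal point lies above the other 3 for every gene except Meg3, whose 4 points lie between 47.5 and 51.6 FPKM.

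Igf2 encodes insulin-like growth factor 2, the main fetal growth factor of the insulin-like family, and H19 is the maternally expressed long non-coding RNA beside it. Both lie on the reverse strand of chromosome 7 in mm9, H19 at chr7:149761434-149764048 and Igf2 at chr7:149836673-149852721, with 72624 bp between them. Igf2 was at 231 FPKM in frontal bone of wild-type mice, 215 FPKM in Twist1+/- frontal, 364 FPKM in labelled Twist1+/- parietal and 1127 FPKM in wild-type parietal bone. H19 was at 177, 166, 388 and 2278 FPKM in the same order of libraries. Both genes had the same order, with the frontal libraries close together, labelled Twist1+/- parietal bone above them and wild-type parietal bone far above all 3. H19 was the 31st most abundant of all genes in wild-type parietal bone and ranked 184 to 318 elsewhere. Igf2 ranked 74 in wild-type parietal bone and 196 to 230 in the other libraries.

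The balance within the pair was not the same in all libraries. The FPKM ratio of H19 to Igf2 was 0.767 in wild-type frontal, 0.774 in Twist1+/- frontal, 1.07 in labelled Twist1+/- parietal and 2.02 in wild-type parietal bone. H19 was thus 12.9-fold higher in wild-type parietal than in wild-type frontal bone, where Igf2 was 4.88-fold higher. Leaving out wild-type parietal bone, the remaining 3 libraries spanned 2.34-fold for H19 and 1.70-fold for Igf2. An Igf2 antisense gene overlaps Igf2 exons, and whether the counting used strand is not given in the sources used here. Igf2os, an antisense RNA of that locus, was at 0.229 to 1.49 FPKM.

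Several members host microRNA genes, and those within H19, Igf2 and Mest are shown because their hosts were among the 5 members more than 3-fold higher in wild-type parietal bone than in each other library. Mature sequences are from RefSeq on GRCm38.p6 and are written 5′ to 3′, with capitals marking the seed, bases 2 to 8.
miR-675-5p: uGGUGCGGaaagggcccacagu
miR-675-3p: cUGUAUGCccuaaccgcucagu
miR-483-5p: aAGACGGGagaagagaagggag
miR-483-3p: uCACUCCUccccucccgucuu
miR-335-5p: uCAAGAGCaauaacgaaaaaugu
miR-335-3p: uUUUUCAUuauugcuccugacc
None of these seeds was shared, and the 37 mature sequences found for 19 of the 20 miRNA genes in the member loci had 37 distinct seeds. Mir675, whose hairpin lies in an H19 exon, Mir483 and Mir335 were each listed at 0 in the 4 libraries, as were 18 of the 20 genes. The exceptions were Mir431, at 38.5 FPKM in wild-type frontal bone and 0 elsewhere, and Mir433, at 3.99 FPKM in frontal bone of wild-type mice and 15.6 FPKM in parietal bone of wild-type mice and 0 in the other 2. Libraries of polyadenylated RNA do not measure mature microRNAs, so these zeros carry no information on the mature forms.

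Igf1, the related growth factor that is not imprinted, was also highest in wild-type parietal bone, at 77.6 FPKM, against 28.1 FPKM in wild-type frontal, 26.3 FPKM in Twist1+/- frontal and 18.6 FPKM in labelled Twist1+/- parietal bone. Unlike Igf2, its level in labelled Twist1+/- parietal bone was the lowest of the 4. The receptors varied less. Igf2r, which clears Igf2 from the cell surface, was at 11.2 to 15.9 FPKM, so the FPKM ratio of Igf2 to Igf2r was 70.8 in wild-type parietal bone and 15.8 to 27.1 in the other libraries. Igf1r, the signalling receptor, was lowest in wild-type parietal bone at 6.33 FPKM and reached 8.67, 10.8 and 10.8 FPKM elsewhere. Of the 17 genes listed around Igf2 (ligand, receptors, binding proteins and proteases), 15 reached 1 FPKM. Of these 15, 6 were highest in wild-type parietal bone, beside 35.5% of all genes. Pappa2, a protease of insulin-like growth factor binding proteins, was the single gene of that list past 3-fold between the wild-type bones, at 1.16 against 0.341 FPKM. The binding protein gene Igfbp6 was past 3-fold only between labelled Twist1+/- parietal bone, at 43.0 FPKM, and Twist1+/- frontal bone, at 13.8 FPKM.

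Cdkn1c encodes p57Kip2, an inhibitor of cyclin-dependent kinases that restrains prenatal growth and supports cell cycle exit. It lies on the reverse strand at chr7:150644255-150646955 (mm9), 791533 bp from Igf2 in the neighbouring Kcnq1 imprinted domain. Its level was 23.7 FPKM in frontal bone of wild-type mice, 25.9 FPKM in Twist1+/- frontal, 44.2 FPKM in labelled Twist1+/- parietal and 155 FPKM in wild-type parietal bone. As for Igf2, the frontal libraries lay close together below both parietal libraries, with wild-type parietal bone 3.51-fold above the next library. The non-imprinted inhibitor Cdkn1a showed another order, being lowest in wild-type parietal bone at 49.1 FPKM and highest in labelled Twist1+/- parietal bone at 94.2 FPKM. The Cdkn1c to Cdkn1a ratio was 3.16 in wild-type parietal bone and 0.348 to 0.469 elsewhere. Among the other 6 CDK inhibitor genes, Cdkn2b alone was past 3-fold between the wild-type bones, at 3.02 against 0.813 FPKM.

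Grb10 encodes an adaptor that binds insulin and insulin-like growth factor receptors and restrains their signalling. It lies on the reverse strand at chr11:11830511-11938686 (mm9). Grb10 was at 43.6 FPKM in frontal bone of wild-type mice, 38.8 FPKM in Twist1+/- frontal, 60.6 FPKM in labelled Twist1+/- parietal and 106 FPKM in wild-type parietal bone. The order was again that of Igf2, but the steps were shallower, 1.75-fold over the next library, and no Grb10 ratio was past 3-fold. Of its family, Grb14 was at 5.96 to 8.47 FPKM, and Grb7 was low throughout, from 0.202 FPKM in wild-type parietal to 1.34 FPKM in Twist1+/- frontal bone.

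Dlk1, a transmembrane relative of Notch ligands that marks progenitor cells and holds back their differentiation, and Meg3, a maternally expressed long non-coding RNA, belong to the same imprinted domain. In mm9 Dlk1 lies at chr12:110691033-110701546 and Meg3 at chr12:110779211-110809936, both on the forward strand and 77664 bp apart. Dlk1 was at 0.901 FPKM in frontal bone of wild-type mice, 1.16 FPKM in Twist1+/- frontal, 1.499 FPKM in labelled Twist1+/- parietal and 7.51 FPKM in wild-type parietal bone. Dlk1 was the least abundant member in each of the 4 libraries, yet its top level stood 5.01-fold above the next. Meg3 was at 51.6, 49.1, 48.2 and 47.5 FPKM in the same order, and its 4 values lay within 1.09-fold of each other. The pair thus parted within their domain, with a Dlk1 to Meg3 ratio of 0.158 in wild-type parietal bone and 0.0174 to 0.0311 in the other libraries. The Meg3 value carries a limit, since Gm17639 overlaps its exons on the opposite strand and the use of strand in counting is not given.

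Rian and Mirg, non-coding RNA genes downstream of Meg3 that are likewise maternally expressed, did not have its flat profile. Rian was at 12.1 FPKM in frontal bone of wild-type mice, 10.1 FPKM in Twist1+/- frontal, 7.40 FPKM in labelled Twist1+/- parietal and 41.7 FPKM in wild-type parietal bone, so that the Rian to Meg3 ratio ranged from 0.153 to 0.877. Mirg was highest in the same library, at 3.38 FPKM against 1.58 to 1.93 FPKM.

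The promoter windows of Dlk1 and Meg3 are shown for this contrast within a domain. Those of Igf2 start 1 and Plagl1 are shown as examples of windows that held matches to CANNTG. These are the E-box letters of the motif class bound by Twist1 and related factors. Each window runs from 250 bases before to 50 bases after a RefSeq start on GRCm38.p6, is written 5′ to 3′ on the gene's strand, and has E-box matches in capitals. The windows are Igf2 start 1 at chr7:142666767-142667066 (reverse), Plagl1 at chr10:13090582-13090881 (forward), Dlk1 at chr12:109452573-109452872 (forward) and Meg3 start 1 at chr12:109540746-109541045 (forward).
Igf2 start 1: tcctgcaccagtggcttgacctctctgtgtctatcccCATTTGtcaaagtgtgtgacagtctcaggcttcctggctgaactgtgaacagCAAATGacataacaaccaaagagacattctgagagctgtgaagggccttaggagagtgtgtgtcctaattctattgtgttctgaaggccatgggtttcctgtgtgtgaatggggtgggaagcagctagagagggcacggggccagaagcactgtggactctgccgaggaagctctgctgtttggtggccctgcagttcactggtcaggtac
Plagl1: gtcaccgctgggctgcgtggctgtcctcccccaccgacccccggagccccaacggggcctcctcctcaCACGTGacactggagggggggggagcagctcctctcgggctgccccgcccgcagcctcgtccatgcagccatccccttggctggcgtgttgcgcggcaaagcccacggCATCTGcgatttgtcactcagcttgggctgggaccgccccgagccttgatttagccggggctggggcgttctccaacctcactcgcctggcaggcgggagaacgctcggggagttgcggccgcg
Dlk1: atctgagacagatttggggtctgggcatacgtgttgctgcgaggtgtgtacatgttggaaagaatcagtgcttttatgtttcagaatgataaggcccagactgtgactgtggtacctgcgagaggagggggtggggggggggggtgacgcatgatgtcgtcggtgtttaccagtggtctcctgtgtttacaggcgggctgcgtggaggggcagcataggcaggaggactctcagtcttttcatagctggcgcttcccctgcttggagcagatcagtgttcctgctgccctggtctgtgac
Meg3 start 1: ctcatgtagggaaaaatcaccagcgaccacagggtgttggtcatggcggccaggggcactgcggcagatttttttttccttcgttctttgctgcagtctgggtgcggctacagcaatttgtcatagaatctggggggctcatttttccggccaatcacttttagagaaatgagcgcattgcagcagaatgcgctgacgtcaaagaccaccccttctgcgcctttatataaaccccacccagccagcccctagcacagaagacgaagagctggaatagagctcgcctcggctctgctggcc
The Igf2 window held CATTTG and CAAATG, the Plagl1 window held CACGTG and CATCTG, and no E-box letters were in the Dlk1 window or in that of Meg3 start 1. Other starts of the same genes differed, since Meg3 start 2 held CATGTG and Igf2 start 3 held CAAGTG, while Igf2 starts 2 and 4 held none. Matches were also in each of the Mest windows and in that of Grb10 start 2, which are not shown. RefSeq windows were found for 8 of the 10 members, 15 windows in all. H19 and Cdkn1c had no entry. E-box letters, which read alike on both strands, occurred in 8 of the 15 windows (53.3%), against 72.3% of the 32851 promoter windows of all genes. The palindrome GGGGCCCC was in 1 window, that of Peg3, against 1.08% of all windows. The members' windows held 1 to 45 CpG dinucleotides, and 12 of the 15 were above the median of 7 over all windows. Matches of letters describe sequence only, and their absence says only that the letters are not in these windows.

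Plagl1 encodes a zinc finger transcription factor known as a regulator of other imprinted genes, and lies on the forward strand at chr10:12810497-12851500 (mm9). It was at 7.22 FPKM in frontal bone of wild-type mice, 14.3 FPKM in Twist1+/- frontal, 17.8 FPKM in labelled Twist1+/- parietal and 38.4 FPKM in wild-type parietal bone. Plagl1 was the member with the greatest excess in Twist1+/- over wild-type frontal bone, 1.98-fold, followed by Dlk1 at 1.29-fold. Its relative Plagl2 was lowest in wild-type parietal bone at 4.27 FPKM, against 6.77 to 9.96 FPKM. Plag1, the fetal growth gene of the family, was at 1.30 FPKM in wild-type parietal and 0.187 FPKM in labelled Twist1+/- parietal bone.

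Peg3, a large zinc finger protein gene tied to fetal growth and maternal behaviour, and Mest, which encodes a protein of the alpha/beta hydrolase fold, departed from the Igf2 order at the lower end. In mm9 Peg3 lies at chr7:6656603-6683132 on the reverse strand and Mest at chr6:30673547-30698457 on the forward strand. Peg3 was at 8.76 FPKM in frontal bone of wild-type mice, 6.71 FPKM in Twist1+/- frontal, 3.41 FPKM in labelled Twist1+/- parietal and 22.0 FPKM in wild-type parietal bone. Mest was at 21.0, 9.22, 12.9 and 102 FPKM in the same order. For both genes wild-type frontal bone came next after wild-type parietal bone, and labelled Twist1+/- parietal bone, which was next for the 7 other members that peaked in wild-type parietal bone, was lower. Zim1, the maternally expressed neighbour of Peg3, had an even steeper profile, at 7.56 FPKM in parietal bone of wild-type mice and 0.116 to 0.468 FPKM elsewhere. The Mest value carries a limit, since 33.4% of the 75-base windows of its longest transcript also occur in transcripts of Copg2, which overlaps it on the opposite strand. Copg2 was at 15.8 FPKM in frontal bone of wild-type mice, 15.2 FPKM in Twist1+/- frontal, 9.84 FPKM in labelled Twist1+/- parietal and 23.4 FPKM in wild-type parietal bone.

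Ndn encodes Necdin, a growth-restraining protein of the MAGE family, and is a single-exon gene at chr7:69493163-69494814 (mm9, forward strand). It was at 24.4 FPKM in frontal bone of wild-type mice, 19.4 FPKM in Twist1+/- frontal, 26.6 FPKM in labelled Twist1+/- parietal and 38.3 FPKM in wild-type parietal bone. Wild-type parietal bone was highest again, but only 1.44-fold above the next library, close to the 1.37-fold spread of the other 3. The MAGE family gene Maged2 had a steeper profile than Ndn, at 110 FPKM in parietal bone of wild-type mice and 34.0 to 40.2 FPKM elsewhere.

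In parietal bone, 6 of the 10 members were more than 3-fold lower in the library labelled Twist1+/- than in wild type: Mest, Peg3, H19, Dlk1, Cdkn1c and Igf2. Over all 13914 genes that reached 1 FPKM in either parietal library, 2.94% were lower by that margin. The log2 FPKM ratios of the 6 were -2.98 for Mest, -2.69 for Peg3, -2.56 for H19, -2.32 for Dlk1, -1.81 for Cdkn1c and -1.63 for Igf2. Plagl1 at -1.11, Grb10 at -0.81 and Ndn at -0.52 were lower as well, and Meg3 was at 0.02. The median difference on the log2(FPKM + 1) scale, which understates the change of low genes, was -1.70 over the members and -0.05 over all genes. Over all genes 730 were past 3-fold higher and 409 lower, and scaling to Gapdh made these 1185 and 210. Igf2 lay just past 3-fold, and with all libraries scaled to the same Gapdh value the ratios of Igf2 and Cdkn1c came to -1.24 and -1.42, leaving 4 members past 3-fold. FPKM ratios in this comparison also moved with base composition, with a median log2 ratio of -0.60 for the least and 0.70 for the most GC-rich of 20 groups of genes. H19, with a GC content of 55.8%, had a log2 ratio between -2.85 and -2.16 over all settings tried, the GC correction included. That correction made the ratio smaller for Mest (-2.67), Peg3 (-2.37), Plagl1 (-0.66) and Grb10 (-0.48). It made the ratio larger for H19 (-2.85), Dlk1 (-2.55), Cdkn1c (-2.39), Igf2 (-1.93) and Ndn (-0.72), and Meg3 came to 0.22.

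**Figure D2:**
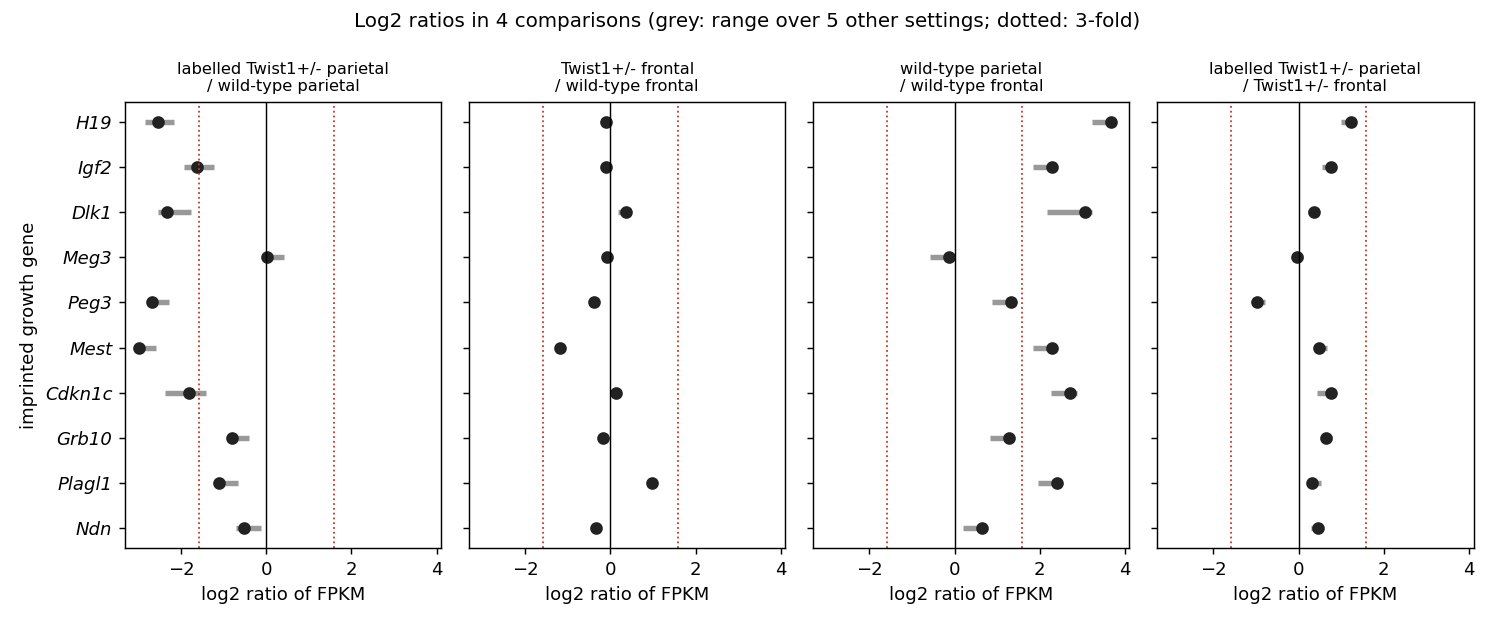
Log2 ratio of FPKM for each of the 10 imprinted growth genes (points) in 4 comparisons of single libraries, with grey bars for the range over 5 other settings and dotted lines at 3-fold. In the parietal comparison the ratios run from -2.98 for Mest to 0.02 for Meg3, and in the frontal comparison from -1.18 for Mest to 0.99 for Plagl1.

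In frontal bone, none of the 10 members was past 3-fold between Twist1+/- and wild type in either direction, where 3.89% of 14341 genes were. H19 and Igf2 had log2 ratios of -0.09 and -0.11, and Meg3 was at -0.07. The widest differences were those of Mest, at -1.18, and Plagl1, at 0.99, which lay in opposite directions. Peg3 at -0.39, Ndn at -0.33 and Grb10 at -0.17 were lower in the mutant, and Dlk1 at 0.37 and Cdkn1c at 0.13 were higher. The median member difference on the log2(FPKM + 1) scale was -0.10, beside -0.03 for all genes. The frontal pair is the one in which the Twist1 level followed the labels.

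Between the wild-type bones, 6 members were more than 3-fold higher in parietal than in frontal bone, where 4.07% of 14214 genes were. H19 led with a log2 ratio of 3.69, followed by Dlk1 at 3.06, Cdkn1c at 2.71, Plagl1 at 2.41, Igf2 at 2.29 and Mest at 2.28. Peg3 at 1.33, Grb10 at 1.28 and Ndn at 0.65 were higher by smaller margins, and Meg3 was at -0.12. The median member difference was 2.197 on the log2(FPKM + 1) scale, against -0.01 over all genes. Over all genes 579 were past 3-fold higher in parietal bone and 1308 lower, or 339 and 2009 when scaled to Gapdh, under which the same number of members, 6, was past 3-fold higher. This comparison and the parietal one share the wild-type parietal library, so they do not give separate evidence of its high levels.

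Between the libraries labelled Twist1+/-, no member was past 3-fold between parietal and frontal bone, where 4.09% of 14305 genes were past it in either direction. H19 was higher in parietal bone by the widest ratio, 1.22 on the log2 scale, and Cdkn1c at 0.77, Igf2 at 0.76 and Grb10 at 0.64 were higher as well. Mest at 0.48, Ndn at 0.46, Dlk1 at 0.37 and Plagl1 at 0.32 were higher in parietal bone too. Peg3, with the next widest ratio after H19, was lower in parietal bone, at -0.98, and Meg3 was at -0.03. The median member difference was 0.44, against -0.03 for all genes. Higher levels in parietal than in frontal bone were therefore seen within both genotype labels for H19, Igf2, Cdkn1c, Grb10, Mest, Ndn, Dlk1 and Plagl1. The margins of these genes were smaller under the Twist1+/- label.

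Members expressed from either parental copy were among those past 3-fold. Among the 6 paternally expressed genes, 4 were past 3-fold in each of the comparisons that involve wild-type parietal bone, and all 6 were highest there. Among the 4 maternally expressed genes, 2 were past 3-fold in each of those comparisons and 3 were highest there. Over all genes, 2.94% were past 3-fold lower in the parietal comparison and 4.07% past 3-fold higher in parietal bone between the wild-type bones. By role, all 4 members grouped as growth-promoting (Igf2, Dlk1, Peg3 and Mest) were past 3-fold in the parietal comparison, with a median log2 ratio of -2.51. Igf2 was not past it with median scaling, at -1.56. Of the 3 members grouped as growth-restraining, 1 was past 3-fold (Cdkn1c, but not Grb10 or Ndn), with a median of -0.81. These counts depend on the grouping, which left out Plagl1 (-1.11) as a transcription factor and H19 (-2.56) and Meg3 (0.02) as non-coding RNAs.

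Of 60 other imprinted genes listed by locus, 59 were in the files and 44 reached 1 FPKM. Wild-type parietal bone was the highest library for 15 of these 44 and the lowest for 14, beside 35.5% and 35.1% of all genes. Between the wild-type bones, 5 were past 3-fold higher in parietal bone (Rian, Zim1, Airn, Slc38a4 and Mcts2) and 5 past 3-fold lower (Snrpn, Snurf, Nnat, Nap1l5 and Slc22a2), beside 4.07% and 9.2% of all genes. Slc38a4, an amino acid transporter gene of the placenta, was at 14.7 FPKM in parietal bone of wild-type mice and 3.61 to 4.86 FPKM elsewhere. Airn, the non-coding RNA antisense to Igf2r, was at 27.0 FPKM in parietal bone of wild-type mice and 6.90 to 7.69 FPKM elsewhere. Snrpn, a splicing protein gene of the domain that holds Ndn, was lowest at 3.17 FPKM in wild-type parietal bone, 5.98 FPKM in labelled Twist1+/- parietal, 12.7 FPKM in Twist1+/- frontal and 16.2 FPKM in wild-type frontal bone. Nnat, a gene of the developing nervous system, was at 16.4 FPKM in wild-type parietal and 84.4 FPKM in wild-type frontal bone.

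Neighbours of the members followed them in some domains and not in others. In the Peg3, Mest and Plagl1 domains both genes that reached 1 FPKM, the member and 1 neighbour, were highest in wild-type parietal bone. The neighbours were Zim1, Copg2, by 1.48-fold over the next library, and Phactr2, by only 1.06-fold. In the Dlk1-Meg3 domain Rian and Mirg were highest there with Dlk1. Over all genes, 35.5% were highest in that library. In the H19-Igf2 and Kcnq1 domains, 9 of 13 genes reached 1 FPKM, and H19, Igf2 and Cdkn1c were the only 3 of these that were highest in wild-type parietal bone. Cd81, Tssc4, Slc22a18, Nap1l4, Osbpl5 and the non-coding Kcnq1ot1 between or beside them stayed within 3-fold in all 4 comparisons. In the Ndn-Snrpn domain, 6 of 8 genes reached 1 FPKM and only Ndn was highest in wild-type parietal bone.

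**Figure D3:**
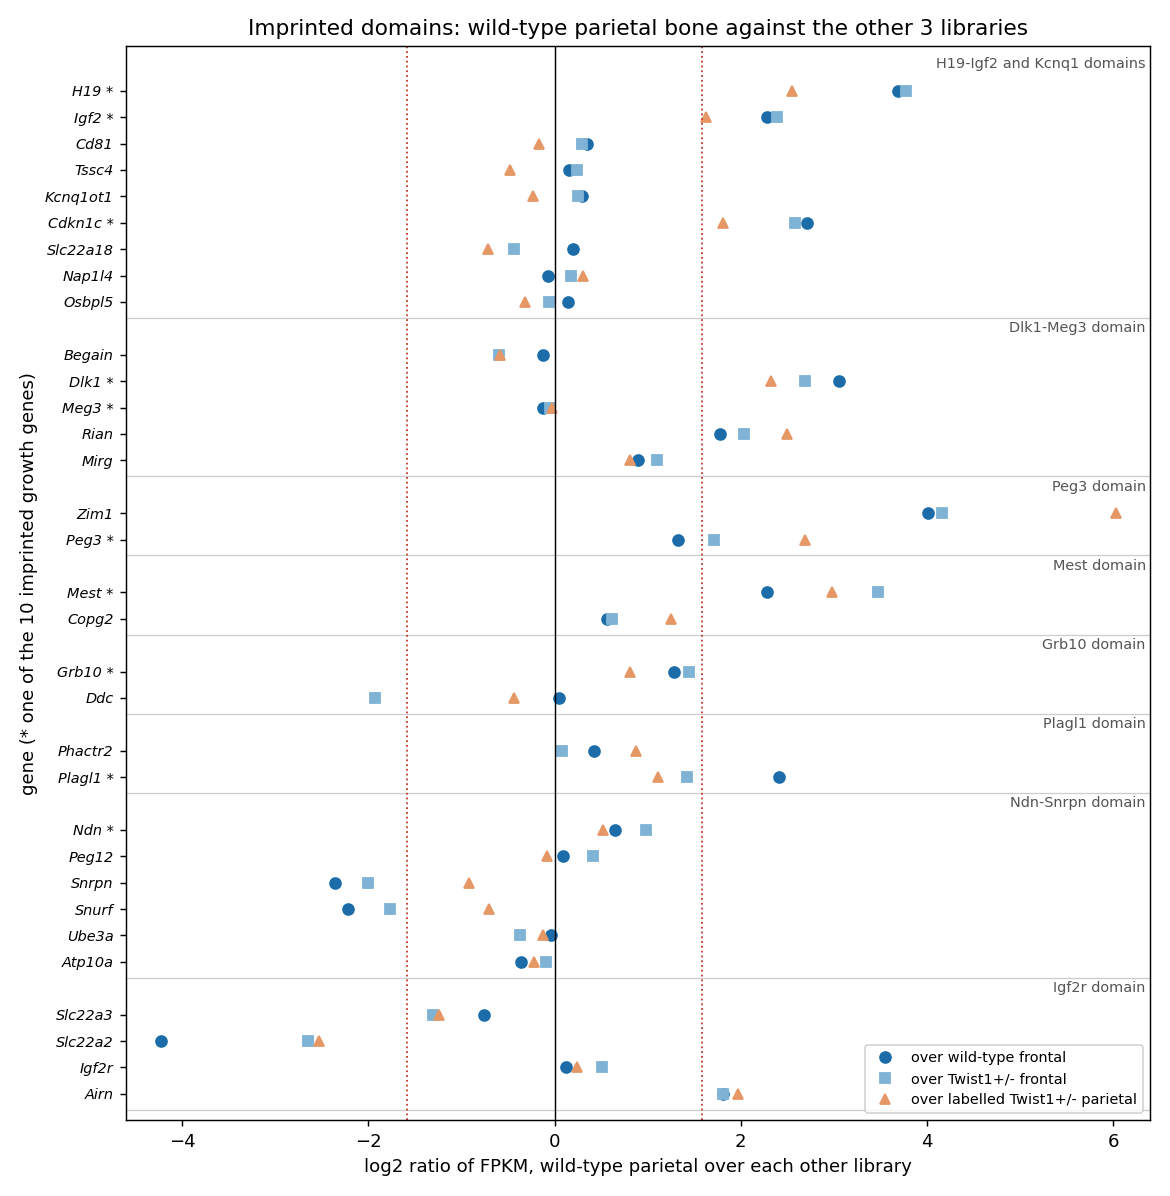
Log2 ratio of FPKM in wild-type parietal bone over each of the other 3 libraries for imprinted genes that reached 1 FPKM, grouped by domain, with the 10 growth genes starred and dotted lines at 3-fold. In the H19-Igf2 and Kcnq1 domains, H19, Igf2 and Cdkn1c lie right of the upper 3-fold line in all 3 ratios and their neighbours lie near 0, whereas Snrpn and Snurf lie on the left.

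Genes tied to growth before birth other than the members gave mixed levels. Of 14 such genes, 11 reached 1 FPKM and 3 were highest in wild-type parietal bone, beside 35.5% of all genes. Gpc3, a proteoglycan gene whose loss causes overgrowth, was at 84.3 FPKM there and at 16.5 to 32.8 FPKM elsewhere. Igf2bp3, an RNA-binding protein gene of the fetal programme, was at 5.52 FPKM in wild-type parietal and 1.81 FPKM in labelled Twist1+/- parietal bone, a difference past 3-fold. Hmga1 and Lin28a went the other way between the wild-type bones, with Hmga1 at 2.95 FPKM in parietal and 11.1 FPKM in frontal bone. Of the 8 genes listed as regulators of imprinting, 6 reached 1 FPKM. Of these 6, 5 were lowest in wild-type parietal bone, beside 35.1% of all genes. Dnmt1, which maintains DNA methylation, was at 6.33 FPKM there and 22.8 FPKM in wild-type frontal bone, and its partner Uhrf1 was at 8.94 and 33.8 FPKM. The 10 proliferation markers summed to 339 FPKM in wild-type parietal and 362 FPKM in labelled Twist1+/- parietal bone. Their sums were 420 FPKM in Twist1+/- frontal and 671 FPKM in wild-type frontal bone.

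The genes nearest to each member in profile over the 4 libraries were named by the smallest largest gap between mean-centred log2(FPKM + 1) values. Igf2 was most like Mmp13, a collagenase gene of hypertrophic cartilage and bone, with a largest gap of 0.08, then Col14a1 and Csrp2, and 12 of 7962 genes lay within 0.25. Cdkn1c was most like Sfrp4, a secreted inhibitor of Wnt signalling, then Slc9b2, with Igf2 as the next. Mest was nearest to Mfap4, an extracellular matrix gene, at a gap of 0.37, and H19 to Itm2a, at 0.44, and neither had any gene within 0.25. Dlk1 was nearest to Angptl4, Plagl1 to the mast cell protease gene Cpa3 and then to Srl and Tpm2, which are expressed in muscle, and Peg3 to Gm10052, with the imprinted Rian among its 3 nearest genes. Grb10 had a common profile, with 374 genes within 0.25. Likeness over 4 libraries is a description only.

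Markers of other tissues moved between the libraries too, and are given with the members because several members are also expressed in those tissues. The 12 skeletal muscle markers summed to 143 FPKM in frontal bone of wild-type mice, 1612 FPKM in Twist1+/- frontal, 2158 FPKM in labelled Twist1+/- parietal and 4440 FPKM in the wild-type parietal library, and 10 of the 12 were highest in the last. Muscle markers were thus 11.3-fold higher in Twist1+/- than in wild-type frontal bone, where H19 was 0.937-fold, Igf2 0.929-fold and Plagl1 1.98-fold the wild-type level. Over the 4 libraries Plagl1, Dlk1 and Cdkn1c had the same order as the muscle sum, and the other members did not. Between the frontal libraries Dlk1 was 1.29-fold and Cdkn1c 1.10-fold the wild-type level. Between the parietal libraries the muscle sum differed 2.06-fold and H19 5.88-fold. Genes of immature muscle, chosen after their values were seen, were also highest in wild-type parietal bone, by unequal margins. Myl4, an embryonic myosin light chain gene, was at 22.3 FPKM there and at 13.4 to 18.3 FPKM elsewhere. Actc1, the cardiac actin gene of fetal muscle, was at 21.7 FPKM in parietal bone of wild-type mice and 0.225 to 1.53 FPKM elsewhere. Myh3, embryonic myosin, was at 1.86 FPKM against 0.0150 to 0.0559 FPKM, and Myh8, perinatal myosin, at 31.7 FPKM against 0.467 to 10.7 FPKM. Their part in the members' levels was not tested.

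The 12 meningeal markers summed to 2746 FPKM in frontal bone of wild-type mice, 943 FPKM in Twist1+/- frontal, 1358 FPKM in labelled Twist1+/- parietal and 1641 FPKM in the wild-type parietal library, but this sum was set by a pair of genes. Ptgds, a prostaglandin synthase gene, was at 1975 FPKM in wild-type frontal bone and 52.8 to 428 FPKM elsewhere. Without Ptgds the other 11 markers summed to 771, 617, 930 and 1589 FPKM in the same order of libraries, the order seen for Igf2 and H19, and most of that sum was Lum, a matrix proteoglycan gene also expressed by other fibroblasts. Without Ptgds and Lum the remaining 10 summed to 110, 88.6, 99.5 and 112 FPKM. Of the 12 markers, 4 were highest and 4 lowest in wild-type parietal bone. Neuronal markers summed to 43.4 FPKM in wild-type parietal bone and 85.1 to 236 FPKM elsewhere, and glial markers to 81.6 FPKM against 348 to 362 FPKM. Without Mbp, a myelin gene, the other 9 glial markers summed to 46.8 FPKM in wild-type parietal and 91.7 FPKM in labelled Twist1+/- parietal bone. Their sums were 140 FPKM in Twist1+/- frontal and 244 FPKM in wild-type frontal bone. Osteoblast and osteocyte markers summed to 10982 to 19174 FPKM, highest in wild-type parietal bone, but without Spp1 their sum was 6935 FPKM there and 6403 to 9642 FPKM elsewhere. Cartilage markers summed to 15.5 to 36.7 FPKM, highest in wild-type parietal bone. Markers of nasal and airway epithelium summed to 27.9 FPKM in wild-type parietal and 2377 FPKM in labelled Twist1+/- parietal bone. In frontal bone they summed to 357 FPKM in wild type and 1671 FPKM in Twist1+/-. Neutrophil lineage markers summed to 7559 FPKM in wild-type parietal bone and 9822 to 17226 FPKM elsewhere, and adipocyte markers to 435 to 605 FPKM. Without Fabp4 the other 9 adipocyte markers summed to 164 FPKM in wild-type parietal bone and 242 to 248 FPKM elsewhere. The part of any list in the members' levels was not tested.

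**Figure D4:**
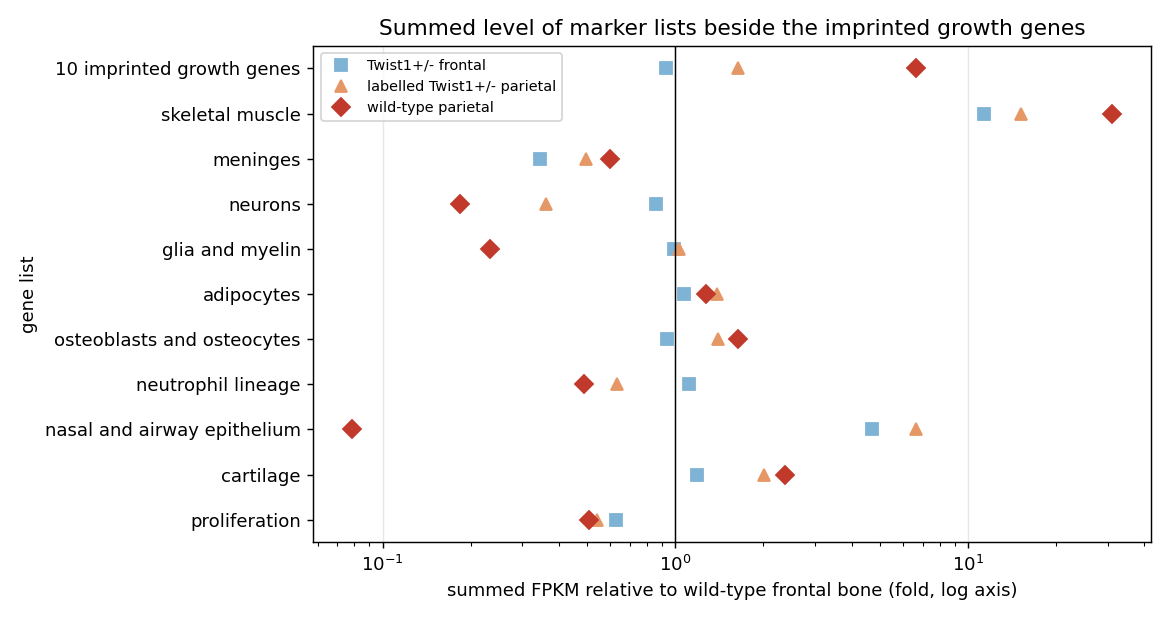
Summed FPKM of the 10 imprinted growth genes and of 10 marker lists in 3 libraries, as a fold of wild-type frontal bone (log axis, line at 1). The imprinted genes, whose sum is mostly H19 and Igf2, were at 6.66-fold in wild-type parietal bone, 1.64-fold in labelled Twist1+/- parietal and 0.925-fold in Twist1+/- frontal bone, and skeletal muscle was at 31.1, 15.1 and 11.3-fold.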

How the data were processed

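RNA-seq of calvarial bone was read from 4 tables of FPKM values, 1 per library. Per the labels and the study's methods, the authors prepared polyadenylated, strand-marking libraries, sequenced 75-base single-end reads, aligned them to mm9 with STAR 2.4.2a and made the deposited FPKM values with Cuffdiff of Cufflinks 2.2.1, with R 3.2.2 among the tools. The use of strand in counting is not given in the sources used here. FPKM keeps no read counts, and the study's methods state read depth only as an average over libraries, so the depth per library is unknown and no counting interval was given.

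Genes were matched by symbol, and 20892 of 23946 (87.2%) had a mm9 position in GENCODE M1. Library ratios were plain FPKM ratios. A gene counted as past 3-fold when the ratio exceeded 3 and the higher library reached 1 FPKM. Medians over lists used log2(FPKM + 1). With 1 library per group no p-value was computed. Scripts (Python 3.11.15, pandas 2.3.3, numpy 2.4.6) were tested on simulated data. Named genes were the 10 members, Twist1, Gapdh, and listed genes past 3-fold in any comparison or among the 3 most abundant of their list, and other listed genes that are named, such as Igf1r, Igf2r, Mirg, Copg2, Gpc3 and the neighbours within domains, were chosen after their values were seen. The members and lists were chosen with earlier results of these data known. The other settings were 2 pseudocounts, 2 floors, a 2-fold threshold, median and Gapdh scaling, and a GC correction. Scaling to Gapdh, the counts over members and the GC correction were partly chosen after seeing the data.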

Additional observations from a re-analysis of the deposited data

Results flagged for a closer look

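For 4 of the 10 genes, the difference between the Twist1+/- label and wild type had opposite signs in the parietal and frontal bones. These differences rest on 1 library per group and were not tested. The share of all genes with opposite signs was not computed, so the count is not a result particular to these genes. Over all genes that reached 1 FPKM in either library, 6523 of 13914 were higher under the Twist1+/- label in parietal bone. In frontal bone 6403 of 14341 were. Dlk1 had a log2 ratio of -2.32 in parietal and 0.37 in frontal bone. Cdkn1c had -1.81 in parietal and 0.13 in frontal bone. Plagl1 had -1.11 in parietal and 0.99 in frontal bone. Meg3 had 0.022 in parietal and -0.072 in frontal bone, values close to 0, and the frontal ratio changed sign with GC correction (0.0089).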

How the results depend on the processing

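No paired analysis was possible because each group had 1 library. Counts of genes past 3-fold moved with the floor, threshold and pseudocount. In the parietal comparison the count was 1139, and it was 3675 with no floor, 323 with a floor of 10 FPKM, 2815 at 2-fold and 458 with a pseudocount of 1. In the frontal comparison 558 became 3032, 159, 1030 and 233 in that order. Between the wild-type bones 1887 became 4525, 625, 3821 and 916, and between the libraries labelled Twist1+/- 585 became 3093, 125, 1702 and 142. At 2-fold, 1 member of 10 was past the threshold in the frontal comparison, beside 1030 of 14341 genes. Between the libraries labelled Twist1+/-, 1 of 10 was, beside 1702 of 14305 genes. In neither was any member past 3-fold.

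Igf2 fell under 3-fold in the parietal comparison with median scaling (log2 ratio -1.56) and Gapdh scaling (-1.24), and Cdkn1c with Gapdh scaling (-1.42). Gapdh, which the Gapdh scaling sets to a log2 ratio of 0, was at -0.39 in the parietal comparison and 0.44 between the wild-type bones, and all other ratios shift by as much. Median scaling shifted them by at most 0.073. Meg3 changed sign between the libraries labelled Twist1+/- with Gapdh scaling (0.02) and GC correction (0.09), and in frontal bone with GC correction (0.01). The 9 members highest in wild-type parietal bone stayed 9 under both scalings, where 32.4% (median) and 17.2% (Gapdh) of all genes were highest there. With no replicates, the spread within a group cannot be given for any value.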
